A study of Rattus norvegicus with 9 samples.

Results

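The genes of microglia and innate immunity described here are a named list of 37, from the receptors that mark microglia to complement, pattern recognition receptors, antigen presentation and scavenger receptors. The list was given by name and was chosen with earlier results of these data known. All 37 genes were found among the 18166 genes with a gene symbol of their own, each with 1 probe set. They were measured in the dorsal hippocampus of 9 male Sprague-Dawley rats aged 8 weeks, with 1 array per rat and 3 rats per group. The OXT-treated VPA group was exposed to valproic acid (VPA) before birth and received oxytocin (OXT), the vehicle-treated VPA group had the same prenatal exposure and received vehicle, and the control group had no VPA and received vehicle. VPA was given by mouth to the dams in mid-gestation, and OXT or vehicle was given daily into the nose after weaning until young adulthood. The dams were fewer than the pups and no label ties an array to a litter, so the pups were treated as independent and the errors do not account for littermates.

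Microglia are the resident macrophages of the brain parenchyma. They survive on signals through Csf1r, survey the tissue with P2ry12-guided processes, and remove synapses, debris and microbes with the help of complement, Trem2 and Toll-like receptors. Other macrophages live at the borders of the brain, in the meninges, around vessels and in the choroid plexus, and are told from microglia by scavenger receptors such as Mrc1 and Cd163. The study asked what prenatal VPA changes in hippocampal gene expression and what intranasal OXT does to it, and the immune genes were compared in that design. In bulk tissue, fewer cells of a type and less RNA per cell cannot be told apart.

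The deposited log2 values had medians between 5.75 and 5.82 on the 9 arrays, and arrays of the same group correlated at 0.9827 or more across probe sets. The neuronal markers Snap25 and Slc17a7 averaged 13.1 and 11.5 over the 9 arrays on the log2 scale. The defining microglial receptors Cx3cr1, Csf1r and P2ry12 lay between 7.90 and 8.74 on every array, over the level of 6.6 that the study used as its lower limit, while Tmem119 lay between 6.02 and 6.43. Of the 37 genes, 20 had a group mean over 6.6. The samples also differed in markers of neighbouring tissue. The 24 measured choroid plexus markers had a mean log2 level of 6.03 to 7.95 in OXT-treated VPA rats, 5.60 to 6.11 in vehicle-treated VPA rats and 6.95 to 7.64 in control rats. Rat 3 of the OXT-treated VPA group was the lowest of its group at 6.03. The 11 thalamus markers were at 6.98 to 8.49, 6.80 to 8.32 and 6.63 to 7.0 in the same order of groups.

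Most microglial and innate immune genes did not pass the test in any pair of groups. A gene was counted at an unadjusted p under 0.05 in limma, the threshold that the study applied to its F test. In vehicle-treated VPA rats compared with control, 3 of the 37 genes passed, with Mrc1 and Cd163 higher and Cxcl16 lower, and 8.76% of all 18511 probe sets with 1 gene symbol passed (3.69% higher, 5.07% lower). In OXT-treated compared with vehicle-treated VPA rats, only Spi1 passed among the 37, higher, against a background of 3.14% (1.94% higher, 1.19% lower). In OXT-treated VPA rats compared with control, Mrc1 and Cd163 passed, higher, against 7.61% (3.98% higher, 3.64% lower). By the moderated F over the 3 groups, Mrc1, Cxcl16 and Cd163 passed, against 6.93%. These counts are close to or below the background, so they are not a result about the list as a whole. After Benjamini-Hochberg adjustment in limma, 0 of the 30429 probe sets passed in any of the 3 comparisons, where 2732, 1419 and 2246 had an unadjusted p under 0.05.

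The size of a difference that could have been present was bounded for most of these genes. The standard error of a difference was between 0.08 and 0.34 on the log2 scale, with a median of 0.11. In each of the 3 comparisons the 95% interval lay within 1.5-fold (0.585 on the log2 scale) in both directions for 33 of the 37 genes, where each interval covers its own gene. Cd74 and Cxcl16 were outside this bound in all 3. The other exceptions were Lyz2 and Cd163 for vehicle-treated VPA rats against control, B2m and Lyz2 for OXT-treated against vehicle-treated VPA rats, and Mrc1 and Cd163 for OXT-treated VPA rats against control. The median difference of the 37 genes was -0.06 in vehicle-treated VPA rats against control, 0.10 in OXT-treated against vehicle-treated VPA rats and 0.06 in OXT-treated VPA rats against control, where the medians of all genes were -0.01, 0.02 and 0.0033. Both VPA groups were compared with the same control arrays.

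**Figure D1:**
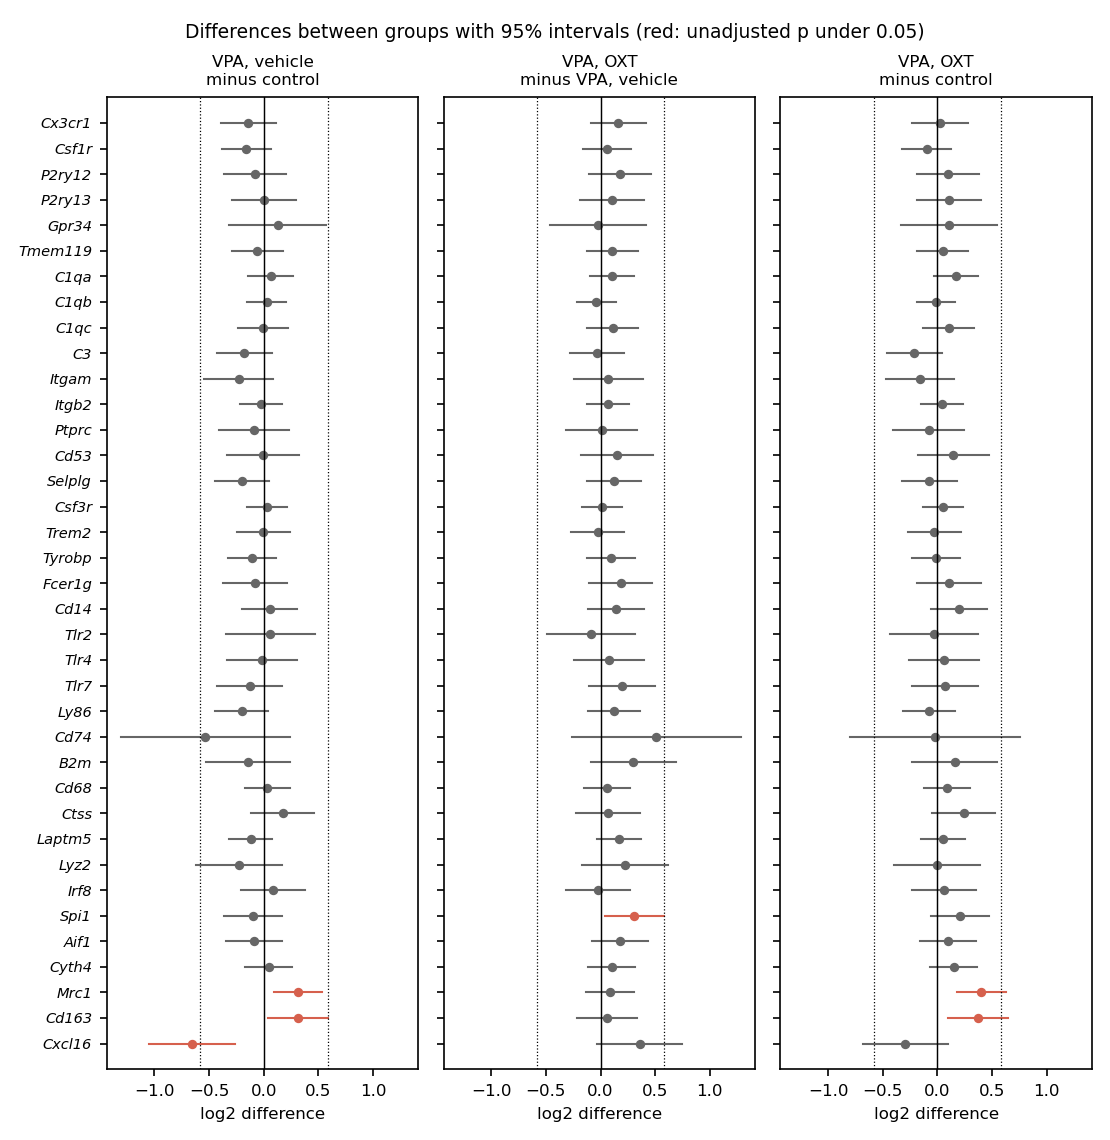
Log2 difference of each of the 37 genes (point) with its 95% interval (line) in the 3 comparisons, with genes grouped by role from top to bottom, red for an unadjusted p under 0.05 in limma and dotted lines at 1.5-fold. Most intervals lie between the dotted lines, and red marks 3, 1 and 2 genes from the left panel to the right.

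The 6 surface receptors that mark microglia had no difference that passed in any comparison. Cx3cr1, the receptor for the neuronal chemokine fractalkine, had log2 levels of 8.74, 8.53 and 8.54 in OXT-treated VPA rats, 8.21, 8.55 and 8.56 in vehicle-treated VPA rats and 8.56, 8.59 and 8.59 in control rats. The groups overlapped, and the one low value was that of rat 1 of the vehicle-treated VPA group. Csf1r, the receptor of the microglial survival factors, averaged 8.23 ± 0.11, 8.17 ± 0.12 and 8.33 ± 0.10 (SD, n = 3 each) in the same order of groups, and its difference between vehicle-treated VPA and control rats was -0.16 (95% interval -0.38 to 0.06). P2ry12, the ADP receptor that steers microglial processes, was at 8.06, 8.24 and 8.35 in OXT-treated VPA rats, 7.90, 8.08 and 8.14 in vehicle-treated VPA rats and 7.93, 8.10 and 8.32 in control rats. These values overlapped across all 3 groups. P2ry13, a related ADP receptor, averaged 7.57 ± 0.06 in OXT-treated VPA rats, 7.47 ± 0.26 in vehicle-treated VPA rats and 7.47 ± 0.11 in control rats (SD, n = 3 each). Gpr34, a receptor for lysophosphatidylserine, had its widest spread in vehicle-treated VPA rats, with 6.48, 6.92 and 7.31. Tmem119, a membrane protein that separates microglia from other macrophages, differed by -0.06 between vehicle-treated VPA and control rats (95% interval -0.29 to 0.17).

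The complement genes were as close. C1qa, C1qb and C1qc encode the chains of C1q, which starts the classical pathway and tags synapses for removal. C1qa was at 7.51, 7.59 and 7.73 in OXT-treated VPA rats, 7.45, 7.55 and 7.52 in vehicle-treated VPA rats and 7.52, 7.33 and 7.48 in control rats. Rat 3 of the OXT-treated VPA group was the highest of all 9 for C1qa, and the groups overlapped. C1qb differed by 0.03 between vehicle-treated VPA and control rats (95% interval -0.15 to 0.20) and C1qc by -0.01 (-0.24 to 0.22). C3, the central component on which the pathways meet, averaged 6.36 ± 0.16, 6.39 ± 0.07 and 6.57 ± 0.15 in OXT-treated VPA, vehicle-treated VPA and control rats (SD, n = 3 each). Its difference from control was -0.21 in OXT-treated VPA rats (95% interval -0.46 to 0.04) and -0.18 in vehicle-treated VPA rats (-0.43 to 0.07).

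The rest of the complement cascade and its regulators, a list of 20 genes of which 13 were measured, had 0 higher and 1 lower gene in vehicle-treated VPA rats against control (Cfb, factor B of the alternative pathway, at -0.28), 2 higher and 0 lower in OXT-treated against vehicle-treated VPA rats, and 3 higher and 0 lower in OXT-treated VPA rats against control. C7, a component of the membrane attack complex, was at 6.17, 5.56 and 6.54 in OXT-treated VPA rats, 4.59, 5.34 and 5.02 in vehicle-treated VPA rats and 5.57, 5.49 and 5.14 in control rats. All 3 OXT-treated VPA rats were above all 3 vehicle-treated VPA rats. The difference of C7 was 1.11 (SE 0.27, adjusted p = 0.90 in limma) between the VPA groups and 0.69 (SE 0.27, adjusted p = 0.596) against control. The other genes that passed were C3ar1, the receptor for a fragment of C3, at 0.23 between the VPA groups, and against control C6 at 0.31 and Cd55, which shields host cells, at 0.41. Of all probe sets with 1 gene symbol, 5.07% were lower in the first of these comparisons, and 1.94% and 3.98% were higher in the others. The count in vehicle-treated VPA rats against control was 0 without vehicle-treated VPA rat 1 or rat 3 or with the mean level of choroid plexus markers as a covariate, 3 lower without vehicle-treated VPA rat 2, and 1 higher and 0 lower without control rat 2. Between the VPA groups it was 1 without OXT-treated VPA rat 2 and 4 without vehicle-treated VPA rat 3, and without vehicle-treated VPA rat 1 it was 1 higher and 1 lower. In OXT-treated VPA rats against control it was 1 without OXT-treated VPA rat 1, rat 2 or rat 3, or control rat 1 or rat 3. The choroid plexus level did not overlap between vehicle-treated VPA and control rats, so that covariate was confounded with group there.

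Integrins and leukocyte surface proteins also stayed short of the threshold in all 3 comparisons of the main fit. Itgam and Itgb2, the chains of complement receptor CR3, averaged 5.49 ± 0.22 and 6.26 ± 0.10 in OXT-treated VPA rats, 5.42 ± 0.07 and 6.19 ± 0.02 in vehicle-treated VPA rats and 5.65 ± 0.22 and 6.21 ± 0.10 in control rats (SD, n = 3 each). Cd53, a leukocyte tetraspanin, was at 7.34, 7.28 and 7.18 in OXT-treated VPA rats, 6.78, 7.24 and 7.33 in vehicle-treated VPA rats and 7.05, 7.06 and 7.26 in control rats. Here again the lowest of the 9 values belonged to rat 1 of the vehicle-treated VPA group. Ptprc, which encodes the common leukocyte antigen CD45, differed by -0.09 between vehicle-treated VPA and control rats (95% interval -0.41 to 0.23). The P-selectin ligand Selplg differed by -0.20 (-0.44 to 0.05) and Csf3r, the receptor of a granulocyte growth factor, by 0.03 (-0.15 to 0.22) in the same comparison. There Selplg passed without vehicle-treated VPA rat 2 (-0.29) and Itgam without control rat 2 (-0.34).

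Trem2, a lipid receptor of phagocytic microglia, and its signalling adaptor Tyrobp had nearly equal group means. Trem2 was at 6.84, 6.97 and 7.26 in OXT-treated VPA rats, 7.04, 7.07 and 7.04 in vehicle-treated VPA rats and 7.04, 7.07 and 7.05 in control rats. The OXT-treated VPA rats spanned the other 6 values on both sides. Tyrobp averaged 6.23 ± 0.02, 6.13 ± 0.18 and 6.24 ± 0.01 in OXT-treated VPA, vehicle-treated VPA and control rats (SD, n = 3 each). Fcer1g, the shared signalling chain of Fc receptors, was at 8.04, 7.95 and 8.02 in OXT-treated VPA rats, 7.56, 7.95 and 7.95 in vehicle-treated VPA rats and 7.83, 7.78 and 8.09 in control rats, with rat 1 of the vehicle-treated VPA group the lowest.

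Among pattern recognition receptors, Cd14, the co-receptor for bacterial lipopolysaccharide, was at 6.88, 6.85 and 7.03 in OXT-treated VPA rats, 6.73, 6.90 and 6.70 in vehicle-treated VPA rats and 6.51, 6.83 and 6.83 in control rats. The OXT-treated VPA rats were all above the control rats, and the difference of 0.20 did not pass (95% interval -0.06 to 0.45). Tlr4, the receptor that Cd14 serves, averaged 5.81 ± 0.26 in OXT-treated VPA rats and 5.73 ± 0.19 in vehicle-treated VPA rats (SD, n = 3 each), and was listed at 5.75 on each of the 3 control arrays. Tlr2, which binds bacterial lipoproteins, differed by 0.06 between vehicle-treated VPA and control rats (-0.35 to 0.47), and Tlr7, which senses RNA of viruses, by -0.13 (-0.43 to 0.17). Ly86, a secreted partner of the Toll-like receptor homolog Cd180, was at 5.83, 5.91 and 5.99 in OXT-treated VPA rats, 5.56, 5.91 and 5.89 in vehicle-treated VPA rats and 6.02, 6.0 and 5.94 in control rats. The vehicle-treated VPA and control rats did not overlap, and the difference of -0.20 did not pass (-0.44 to 0.04). In the wider Toll-like receptor pathway, 18 of 21 listed genes were measured, and only Nfkbia, the inhibitor of NF-kappa-B, passed, lower than control in OXT-treated VPA rats (-0.46, against 3.64% of probe sets lower) and in vehicle-treated VPA rats (-0.41, against 5.07%).

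In the lysosome, Ctss, a cathepsin that processes antigens, was at 9.0, 9.14 and 9.18 in OXT-treated VPA rats, 8.82, 8.98 and 9.32 in vehicle-treated VPA rats and 8.94, 8.79 and 8.87 in control rats. The OXT-treated VPA rats lay above the control rats without overlap, and the difference of 0.24 did not pass (95% interval -0.05 to 0.53). Lyz2, which encodes lysozyme, was at 7.55, 7.16 and 7.45 in OXT-treated VPA rats, 6.81, 7.43 and 7.25 in vehicle-treated VPA rats and 7.20, 7.52 and 7.45 in control rats. Its interval between the VPA groups was -0.17 to 0.62, wider than 1.5-fold, and the groups overlapped. Laptm5, a lysosomal membrane protein of leukocytes, differed by 0.17 between the OXT-treated and vehicle-treated VPA groups (-0.03 to 0.37), and the phagocyte marker Cd68 by 0.06 (-0.15 to 0.27).

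**Figure D2:**
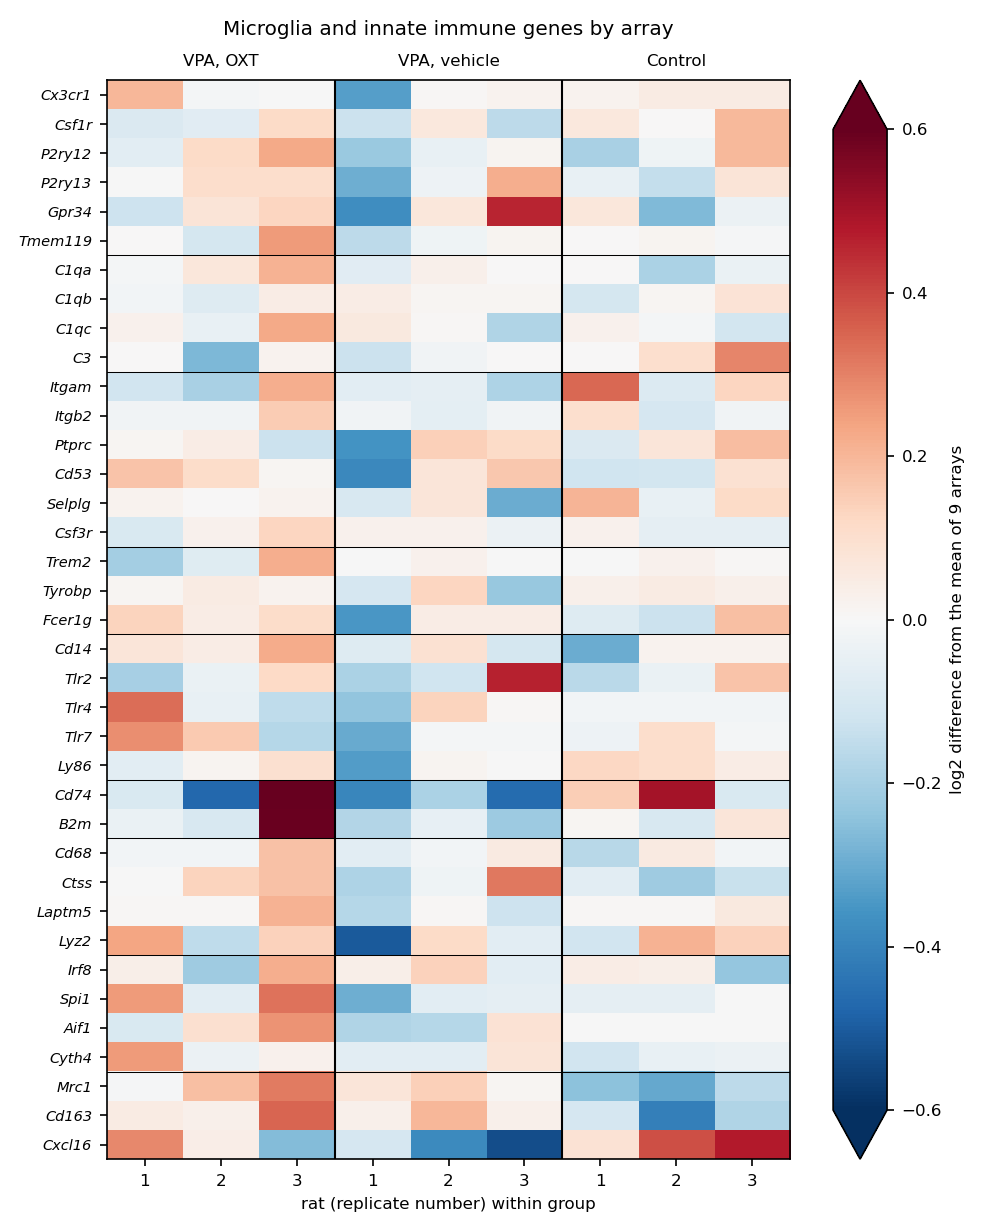
Heat map of the 37 genes (rows, grouped by role) on the 9 arrays (columns, by group and rat), coloured by the log2 difference from the mean of all 9 arrays. Rat 1 of the vehicle-treated VPA group is blue over many genes, rat 3 of the OXT-treated VPA group is red over many, and Mrc1 and Cd163 near the bottom are blue in the 3 control rats.

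In the heat map 2 rats stood apart from the others of their groups. Rat 1 of the vehicle-treated VPA group was the lowest of the 9 arrays for 15 of the 37 genes (40.5%), against 12% of all genes, and lay below the mean of the arrays for 31. Rat 3 of the OXT-treated VPA group was the highest for 17 (45.9%), against 16.3% of all genes, and lay above the mean for 32. The median deviation of the 37 genes from the mean of the 9 arrays was -0.16 in the one rat and 0.14 in the other, and between -0.01 and 0.02 on each of the other 7 arrays. Among 37 other microglia genes that are not on the list (of 41 named), the same 2 rats were lowest for 7 (18.9%) and highest for 8 (21.6%). OXT-treated VPA rat 1 was lowest for 9 (24.3%) and control rat 3 highest for 8 (21.6%), so the 2 rats did not stand apart in these counts. Only 8 of these other genes had a group mean over 6.6, against 20 of the members. Their list level was 5.96 to 6.12 on the 9 arrays, against 6.57 to 6.89, so the 2 lists were not alike in level. By median deviation they were again the lowest and the highest array, at -0.03 and 0.07. OXT-treated VPA rat 1 was close to the one at -0.02, and control rat 3 was at 0.04. Vehicle-treated VPA rat 1 lay below the mean for 24 of these genes. OXT-treated VPA rat 3 lay above it for 28 and control rat 3 for 29. Without vehicle-treated VPA rat 1 and OXT-treated VPA rat 3, a choice made after the data were seen, the median difference of the 37 genes between the OXT-treated and vehicle-treated VPA groups was 0.015 in place of 0.10. Those 2 rats were picked from the same values, as the lowest of the lower group and the highest of the higher group. Leaving them out was thus bound to shrink the difference, and no conclusion is drawn from it. Without vehicle-treated VPA rat 1 alone it was 0.05, and without OXT-treated VPA rat 3 alone 0.07. Of the other microglia genes, 0 of 37 passed in limma in vehicle-treated VPA rats against control (0 to 2 under the alternatives tried), 1 between the VPA groups (Ctsc, cathepsin C, higher by 0.39) and 2 in OXT-treated VPA rats against control (Plcg2, a signalling enzyme below Trem2, higher by 0.37, and Sall1, a transcription factor of microglial identity, lower at -0.35), against 8.76%, 3.14% and 7.61% of probe sets. The count between the VPA groups was 2 without OXT-treated VPA rat 2 (both higher), and without OXT-treated or vehicle-treated VPA rat 3 (1 higher and 1 lower each). The count in OXT-treated VPA rats against control was 0 without OXT-treated VPA rat 1 or rat 2, and 1 without vehicle-treated VPA rat 1 or rat 2 or control rat 1 or rat 2. The count of 0 in vehicle-treated VPA rats against control became 1 lower without OXT-treated VPA rat 1 or rat 3 or vehicle-treated VPA rat 3. It became 1 higher without vehicle-treated VPA rat 1 or control rat 3, and 2 lower without vehicle-treated VPA rat 2.

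**Figure D3:**
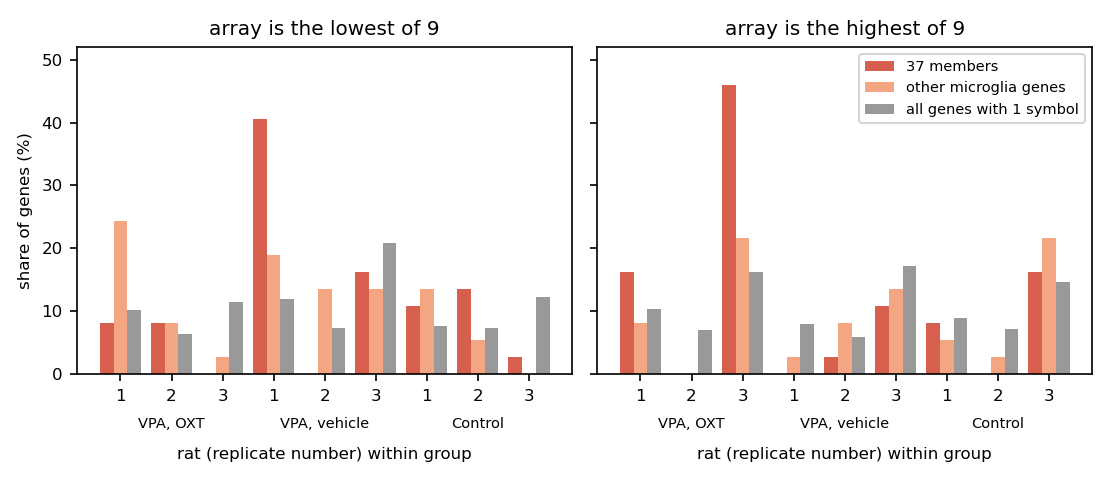
Share of genes (%) for which each array is the lowest (left) or the highest (right) of the 9, for the 37 genes, 37 other microglia genes and all genes with 1 symbol, by group and rat. The tallest bars belong to rat 1 of the vehicle-treated VPA group at 40.5% on the left and rat 3 of the OXT-treated VPA group at 45.9% on the right.

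Against control, Mrc1 and Cd163 were the members that passed as higher in each of the VPA groups. Mrc1, the macrophage mannose receptor, was at 5.88, 6.07 and 6.20 in OXT-treated VPA rats, 5.96, 6.03 and 5.90 in vehicle-treated VPA rats and 5.64, 5.58 and 5.73 in control rats. All 6 VPA rats were above all 3 control rats. The log2 difference of Mrc1 from control was 0.40 in OXT-treated VPA rats (SE 0.10, 95% interval 0.18 to 0.62, 1.32-fold, adjusted p = 0.299 in limma) and 0.31 in vehicle-treated VPA rats (SE 0.10, 0.09 to 0.54, 1.24-fold, adjusted p = 0.387). Cd163, the scavenger receptor for hemoglobin, was at 5.36, 5.34 and 5.66 in OXT-treated VPA rats, 5.34, 5.51 and 5.34 in vehicle-treated VPA rats and 5.21, 4.90 and 5.13 in control rats. The same separation held, with control rat 2 the lowest. The difference of Cd163 from control was 0.37 in OXT-treated VPA rats (SE 0.12, 0.10 to 0.65, adjusted p = 0.489) and 0.32 in vehicle-treated VPA rats (SE 0.12, 0.04 to 0.59, adjusted p = 0.487). Between the OXT-treated and vehicle-treated VPA groups the differences were 0.09 for Mrc1 (-0.14 to 0.31) and 0.06 for Cd163 (-0.22 to 0.33). The controls are shared, so the 2 differences of each gene from control are not independent.

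Both genes were below the level of 6.6 on all 9 arrays, and some calls rested on few arrays. Without control rat 2, Cd163 no longer passed against control, at 0.28 in OXT-treated and 0.23 in vehicle-treated VPA rats. It did not pass in vehicle-treated VPA rats without their rat 2 (0.26), or in OXT-treated VPA rats without their rat 3 and vehicle-treated VPA rat 1 together (0.27). With the mean level of choroid plexus markers as a covariate, added after the data were seen, the difference between vehicle-treated VPA and control rats was 0.13 for Mrc1 and 0.18 for Cd163, and neither passed. The choroid plexus level did not overlap between vehicle-treated VPA rats (5.60 to 6.11) and control rats (6.95 to 7.64). Covariate and group were thus confounded in this comparison, and the fit cannot separate them. Mrc1 passed against control in OXT-treated VPA rats under all 19 alternatives in which it was tested, with differences between 0.33 and 0.49. Counting arrays without overlap, 5 of the 37 genes separated vehicle-treated VPA from control rats (Mrc1 and Cd163 higher, Cxcl16, Cd74 and Ly86 lower), against 14.6% of probe sets (5.58% higher, 9.04% lower), 0 separated the VPA groups, against 5.37% (3.4% higher, 1.97% lower), and 4 separated OXT-treated VPA from control rats (Mrc1, Cd163, Cd14 and Ctss, all higher), against 13.5% (6.52% higher, 6.97% lower).

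Other genes of border macrophages that are not on the list were read beside Mrc1 and Cd163, and 7 of 9 were measured, all with means below 6.6. They too were chosen with earlier results of these data known. In vehicle-treated VPA rats against control 3 were higher and 0 lower, in OXT-treated VPA rats against control 4 were higher and 0 lower, and between the VPA groups 2 were higher and 1 was lower in OXT-treated rats. Of all probe sets, 3.69%, 3.98% and 1.94% were higher in these comparisons and 1.19% lower in the last. F13a1, the transglutaminase chain of coagulation factor XIII in macrophages, was at 5.92, 5.68 and 6.11 in OXT-treated VPA rats, 5.73, 5.65 and 5.45 in vehicle-treated VPA rats and 5.09, 5.11 and 5.29 in control rats. The difference of F13a1 from control was 0.74 (SE 0.13, adjusted p = 0.142 in limma) in OXT-treated and 0.45 (SE 0.13, adjusted p = 0.339) in vehicle-treated VPA rats, and all 6 VPA rats were above all control rats. Stab1, an endocytic scavenger receptor, was higher than control by 0.21 in OXT-treated and 0.19 in vehicle-treated VPA rats. Lyve1, the hyaluronan receptor, went another way, at 5.68, 5.83 and 5.83 in OXT-treated VPA rats, 6.15, 6.18 and 5.91 in vehicle-treated VPA rats and 5.66, 5.62 and 5.82 in control rats, so that only the vehicle-treated VPA rats stood above the others. Lyve1 was higher by 0.38 in vehicle-treated VPA rats than in control and differed by -0.30 in OXT-treated against vehicle-treated VPA rats, and both passed. Pf4 and Folr2 passed against control in OXT-treated VPA rats alone, at 0.28 and 0.25, and whether this differs from the vehicle-treated group was tested as the difference between the VPA groups, at 0.16 for Pf4 (adjusted p = 1 in limma), which did not pass, and at 0.29 for Folr2, which passed before adjustment. The number higher in OXT-treated VPA rats against control was 1 without OXT-treated VPA rat 1 or control rat 2 and 2 without control rat 3, and 1 after quantile normalization. Between the VPA groups it was 0 without OXT-treated VPA rat 1 or vehicle-treated VPA rat 3, 1 without OXT-treated VPA rat 3, vehicle-treated VPA rat 2 or any control rat, and 1 with the replicate block or with only the 2 VPA groups in the fit. It was also 0 with array weights, and 0 without OXT-treated VPA rat 3 and vehicle-treated VPA rat 1 together, where the number against control in OXT-treated VPA rats was 2. With the choroid plexus covariate, the number higher was 0 between the VPA groups and 0 in vehicle-treated VPA rats against control. In the latter comparison covariate and group were confounded.

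Markers of vessels and their surroundings were read beside the border macrophage genes, and their part in the result was not tested. Of 12 measured endothelial markers, 6 were higher and 1 lower in OXT-treated VPA rats against control, and 4 were higher and 1 lower in vehicle-treated VPA rats against control, where 3.98% and 3.69% of probe sets were higher and 3.64% and 5.07% lower. Their mean log2 level was 7.75 to 7.83 in OXT-treated VPA rats, 7.65 to 7.81 in vehicle-treated VPA rats and 7.53 to 7.58 in control rats. Of 14 pericyte and meningeal markers, 4 were higher and 0 lower in OXT-treated VPA rats against control. In vehicle-treated VPA rats against control 2 were higher and 0 lower. Between the VPA groups 5 were higher and 0 lower, where 1.94% of probe sets were higher and 1.19% lower. Their levels were 7.28 to 7.68, 6.78 to 7.36 and 6.91 to 7.13 in the same order of groups as the endothelial levels. Vehicle-treated VPA and control rats thus overlapped. The 3 measured red blood cell genes were at 6.93 to 7.44, 6.99 to 7.50 and 6.32 to 6.94, with Hba-a1, a hemoglobin chain, higher than control by 0.98 in OXT-treated and 0.92 in vehicle-treated VPA rats. Of the 3, 1 passed as higher in OXT-treated and 2 in vehicle-treated VPA rats against control, where 3.98% and 3.69% of probe sets did. None was lower, and none passed between the VPA groups. The lowest deposited value was 0.9, so a level over 0 does not show that a marker was detected.

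**Figure D4:**
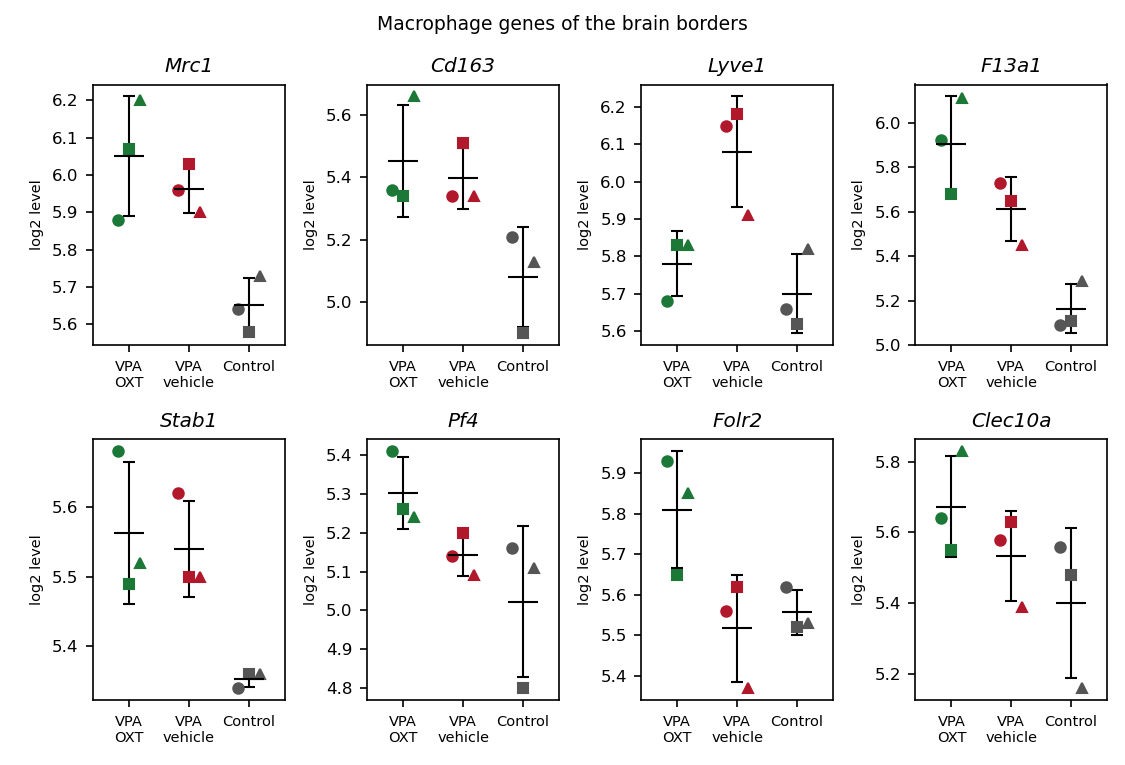
Log2 level of Mrc1, Cd163 and 6 other border macrophage genes in each rat (circle, square and triangle for rats 1, 2 and 3), with the group mean (bar) and SD (whisker, n = 3), for OXT-treated VPA, vehicle-treated VPA and control rats from left to right on axes that do not start at 0. For Mrc1, Cd163 and F13a1 all VPA rats lie above all control rats, and for Lyve1 the vehicle-treated VPA rats stand above the rest.

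Cxcl16 was the gene of the list with the largest difference in vehicle-treated VPA rats. It encodes a chemokine that is anchored in the membrane and also takes up oxidized lipoprotein. Its levels were 6.83, 6.58 and 6.28 in OXT-treated VPA rats, 6.44, 6.16 and 6.01 in vehicle-treated VPA rats and 6.63, 6.93 and 7.02 in control rats. Vehicle-treated VPA rats were all below control rats, with a difference of -0.66 (SE 0.17, 95% interval -1.05 to -0.27, 0.634-fold, adjusted p = 0.297 in limma). OXT-treated VPA rats lay between, with a difference of 0.36 from vehicle-treated VPA rats (-0.03 to 0.75) and -0.30 from control rats (-0.69 to 0.09), and neither passed. Between the VPA groups Cxcl16 did pass with array weights (0.38), and without OXT-treated VPA rat 3 (0.50), vehicle-treated VPA rat 1 (0.48) or both (0.62). Against control it passed in OXT-treated VPA rats without their rat 1 (-0.43). Of the 24 measured choroid plexus markers, 0 were higher and 17 lower in vehicle-treated VPA rats against control, and 18 were higher and 0 lower in OXT-treated against vehicle-treated VPA rats, where 5.07% of probe sets were lower and 1.94% higher. With their mean level as a covariate the difference of Cxcl16 between vehicle-treated VPA and control rats was -0.38 and did not pass, and under the other 19 alternatives it passed. Vehicle-treated VPA and control rats did not overlap in that mean level, so covariate and group were confounded in this comparison.

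The promoters of the called scavenger and border macrophage genes are shown because these genes carry most of the calls, and that of Csf1r because it marks the whole lineage. Each is 300 bases of RefSeq sequence of the rat assembly GRCr8, across the annotated start of the gene, read 5′ to 3′ on the strand of the gene, at chr17:82157475-82157774 (plus strand) for Mrc1, chr4:158770524-158770823 (plus) for Cd163, chr10:55669901-55670200 (minus) for Cxcl16 and chr18:56834129-56834428 (plus) for Csf1r. Capitals mark GAGGAA, the core of the sites that bind the myeloid transcription factor encoded by Spi1, or its reverse complement TTCCTC.
Mrc1: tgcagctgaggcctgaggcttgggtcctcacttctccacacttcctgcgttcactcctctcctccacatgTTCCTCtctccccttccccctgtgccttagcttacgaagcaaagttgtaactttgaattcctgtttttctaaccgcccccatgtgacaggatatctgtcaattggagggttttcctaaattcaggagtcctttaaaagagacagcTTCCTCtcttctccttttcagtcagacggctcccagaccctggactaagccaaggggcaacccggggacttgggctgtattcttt
Cd163: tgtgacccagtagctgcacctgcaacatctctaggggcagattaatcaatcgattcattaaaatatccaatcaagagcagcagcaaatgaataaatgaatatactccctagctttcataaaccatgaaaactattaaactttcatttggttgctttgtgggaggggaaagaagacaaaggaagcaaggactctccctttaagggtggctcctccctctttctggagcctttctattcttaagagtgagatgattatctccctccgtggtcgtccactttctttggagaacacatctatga
Cxcl16: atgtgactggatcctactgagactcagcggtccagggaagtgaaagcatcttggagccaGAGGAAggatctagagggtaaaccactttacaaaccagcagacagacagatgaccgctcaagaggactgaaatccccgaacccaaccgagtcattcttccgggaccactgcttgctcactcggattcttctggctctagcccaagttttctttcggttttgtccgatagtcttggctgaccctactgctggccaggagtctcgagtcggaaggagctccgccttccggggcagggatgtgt
Csf1r: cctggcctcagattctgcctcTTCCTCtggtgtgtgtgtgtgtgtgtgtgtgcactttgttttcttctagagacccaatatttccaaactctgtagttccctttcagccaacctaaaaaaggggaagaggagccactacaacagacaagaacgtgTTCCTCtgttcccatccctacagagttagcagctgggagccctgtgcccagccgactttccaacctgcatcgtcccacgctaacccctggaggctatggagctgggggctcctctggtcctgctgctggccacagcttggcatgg
GAGGAA on either strand was in 19 of the 27 members' windows that the promoter table holds (70.4%), against 27.6% of all 33469 windows of this length. The longer forms, which contain it, were in 13 members (48.1%, against 12.4%) for GAGGAAG and 3 members (11.1%, against 2.42%) for GAGGAAGT, namely Cd53, Ctss and Cyth4. Mrc1 and Csf1r each held 2 matches on the minus strand, Cxcl16 held 1 on the plus strand and Cd163 held none. A match describes letters in a window and not a bound site.

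Spi1, which encodes the master transcription factor of macrophages and microglia, was the member that passed between the VPA groups. It was at 6.05, 5.73 and 6.12 in OXT-treated VPA rats, 5.5, 5.73 and 5.74 in vehicle-treated VPA rats and 5.74, 5.74 and 5.79 in control rats. OXT-treated VPA rats 1 and 3 were above all others and rat 2 was level with the vehicle-treated VPA rats, so the groups overlapped. The difference between the VPA groups was 0.31 (SE 0.12, 95% interval 0.04 to 0.58, adjusted p = 1 in limma). It did not pass without OXT-treated VPA rat 1 (0.27) or rat 3 (0.23), without vehicle-treated VPA rat 1 (0.23), with array weights (0.25), with only the 2 VPA groups in the fit, with the choroid plexus covariate (0.37), or without OXT-treated VPA rat 3 and vehicle-treated VPA rat 1 together (0.155). Irf8, its partner factor, differed by -0.02 (-0.32 to 0.27) between the VPA groups. Aif1, which encodes the widely stained microglial protein Iba1, was at 6.58, 6.77 and 6.94 in OXT-treated VPA rats, 6.49, 6.50 and 6.76 in vehicle-treated VPA rats and 6.67 on each of the 3 control arrays, and its difference of 0.18 between the VPA groups did not pass (-0.08 to 0.44). Cyth4, a leukocyte exchange factor for small GTPases, differed by 0.10 (-0.12 to 0.32).

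Antigen presentation varied most within a group. Cd74, the invariant chain that guides MHC class II molecules, was at 7.18, 6.80 and 8.32 in OXT-treated VPA rats, 6.88, 7.08 and 6.81 in vehicle-treated VPA rats and 7.42, 7.77 and 7.18 in control rats. OXT-treated VPA rat 3 was far above the rest, and its group had an SD of 0.79, against 0.14 in vehicle-treated VPA and 0.30 in control rats. The difference between vehicle-treated VPA and control rats was -0.53 (SE 0.34, 95% interval -1.31 to 0.24) without overlap of the arrays, and the difference between the VPA groups was 0.51 (SE 0.34), and neither passed. Both SEs rest on a spread shared by the 3 groups. Against control, vehicle-treated VPA rats passed as lower with only the 2 groups in the fit, or without OXT-treated VPA rat 3 (both -0.53). Without that rat, OXT-treated VPA rats also passed as lower than control (-0.47). Between the VPA groups Cd74 passed without OXT-treated VPA rat 2 (0.83). B2m, the light chain of MHC class I, was at 10.23, 10.17 and 10.86 in OXT-treated VPA rats, 10.09, 10.22 and 10.05 in vehicle-treated VPA rats and 10.28, 10.17 and 10.34 in control rats. OXT-treated VPA rat 3 was again the highest, and the difference of 0.30 between the VPA groups did not pass (-0.09 to 0.69).

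The other MHC genes were measured for 13 of 16 listed. In vehicle-treated VPA rats against control 0 were higher and 2 lower (the class II chain RT1-Db1 at -0.26 and the peptide-loading protein Tapbp at -0.21), in OXT-treated against vehicle-treated VPA rats 3 were higher and 0 lower, and in OXT-treated VPA rats against control 0 were higher and 1 lower (RT1-DMa, a class II chaperone chain, at -0.25). Of all probe sets, 5.07% were lower, 1.94% higher and 3.64% lower in these comparisons. The class II chain RT1-Da was at 5.98, 5.73 and 6.71 in OXT-treated VPA rats, 5.60, 5.73 and 5.48 in vehicle-treated VPA rats and 6.0, 6.10 and 5.79 in control rats, and OXT-treated VPA rat 3 was again the highest of all. The differences between the VPA groups were 0.54 (SE 0.22) for RT1-Da, 0.27 (SE 0.10) for RT1-Db1 and 0.53 (SE 0.22) for the immunoproteasome subunit Psmb8, each with an adjusted p of 1 in limma. Without OXT-treated VPA rat 3, 0 of the 13 passed between the VPA groups, and without vehicle-treated VPA rat 1 or rat 3, or control rat 2, 1 passed. The 2 that were lower in vehicle-treated VPA rats against control were 0 without control rat 1 or rat 2 and 1 without vehicle-treated VPA rat 3. In OXT-treated VPA rats against control 0 passed without control rat 3, and 1 was higher and 0 lower without OXT-treated VPA rat 1.

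**Figure D5:**
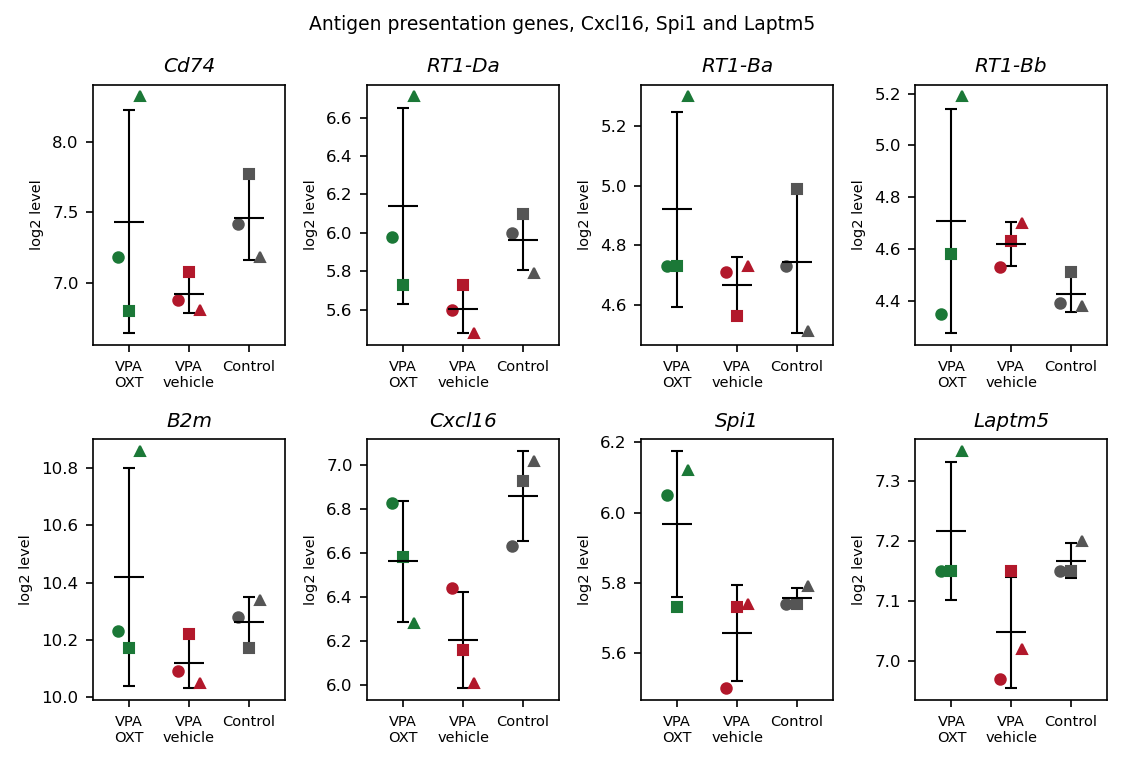
Log2 level of Cd74, RT1-Da, RT1-Ba, RT1-Bb, B2m, Cxcl16, Spi1 and Laptm5 in each rat (circle, square and triangle for rats 1, 2 and 3), with the group mean (bar) and SD (whisker, n = 3), for OXT-treated VPA, vehicle-treated VPA and control rats from left to right on axes that do not start at 0. The triangle of the OXT-treated VPA group is the highest point for Cd74, the 3 RT1 genes and B2m, and Cxcl16 is lowest in the vehicle-treated VPA rats.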

How the data were processed

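Hippocampal RNA was labelled and read on Rat Gene 2.0 ST arrays, 1 for each of 9 rats. The deposited values are log2 expression per probe set, normalized across arrays and rounded by the authors with Affymetrix Expression Console, and lie between 0.9 and 13.77. The summarization method, genome build and annotation are not given in the sources used here. No scanner files were used, so detection of single probes and scan batches were not analysed here. Precision is limited by the 9 arrays.

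Among the 30429 probe sets, 1 gene symbol was given for 18511, several for 575 and none for 11343. Of the probe sets with 1 gene symbol, 18394 had a gene ID that matched RefSeq of GRCr8. Values were used as deposited. The 3 groups entered a linear model, fitted to every probe set with limma (version 3.58.1, R version 4.3.3) and empirical Bayes moderation (prior degrees of freedom 2.723), which gave 3 pairwise differences and the moderated F. P values were two-sided, with Benjamini-Hochberg adjustment across the 30429 probe sets. A gene passed at an unadjusted p under 0.05. The fit was tested on simulated data. Counts were read beside the share of all probe sets with 1 symbol that passed, and no list was tested as a set. A list level is the mean log2 value of its measured genes. All 37 genes were named. From the other lists, up to 4 genes with the smallest p among those that passed were named, with 1 or 2 abundant markers as level checks. C6, Pf4, RT1-Da, and the plotted RT1-Ba, RT1-Bb and Clec10a fall outside this rule and were chosen after their values were seen. The 37 genes and all other lists were chosen with earlier results of these data known. Recomputed were the counts and medians of the 37 genes, and the differences of members that passed in the main fit. So were the counts of the border macrophage (higher only), complement, MHC and other microglia lists. The other lists, the counts of arrays without overlap and the differences of single genes outside the 37 were not recomputed. The alternatives were a fit of only the 2 groups compared, array weights, median centring, quantile normalization, robust moderation with a trend, a level filter at 6.6, 1 probe set per gene, the mean of the probe sets of a gene, the replicate number as a block, and leaving out each array. Added after the data were seen were a choroid plexus covariate and leaving out 2 arrays together.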

Additional observations from a re-analysis of the deposited data

How the results depend on the processing

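Of 494 values recomputed under up to 20 alternatives, 388 stayed on their side of the threshold or, for counts of genes taken without regard to direction or identity, within 1.5 times, or, for medians, within the spread of the arrays (0.0705). Another 79 weakened, 25 grew stronger and 2 moved. The sign was checked only for single-gene differences of members that had passed in the main fit, and 0 of these changed sign. The median of the 37 genes in OXT-treated VPA rats against control was -0.0067, in place of 0.06, without OXT-treated VPA rat 3, also when vehicle-treated VPA rat 1 was left out with it. Some counts of the complement, MHC and other microglia lists changed direction, as given with those lists. Tested on probe sets over the level of 6.6 only, which leaves 20 of the 37 genes, the count that passed was 1 for vehicle-treated VPA rats against control, 0 for OXT-treated against vehicle-treated VPA rats, 0 for OXT-treated VPA rats against control and 1 by F, in place of 3, 1, 2 and 3. With only the 2 VPA groups in the fit, 0 genes passed between them. With the choroid plexus covariate 4 passed between the VPA groups (P2ry12, Cd74, B2m and Aif1, all higher, and not Spi1) and the median difference of the 37 genes was 0.18, and in vehicle-treated VPA rats against control the 3 that passed were Cd74, B2m and Aif1, all lower, in place of Mrc1, Cd163 and Cxcl16. The choroid plexus level did not overlap between vehicle-treated VPA and control rats, so covariate and group were confounded in that comparison. Between the VPA groups only OXT-treated VPA rat 3, at 6.03, overlapped the vehicle-treated rats. Without vehicle-treated VPA rat 1 and OXT-treated VPA rat 3 together, 2 passed between the VPA groups with a median difference of 0.015, and 1 passed in OXT-treated VPA rats against control. That median was bound to shrink, because the 2 rats were picked from the same values. With array weights 4 passed in OXT-treated VPA rats against control. Apart from the level filter, the cause was not tested. Leaving out each array in turn gave 3 to 4 genes for vehicle-treated VPA rats against control, 1 to 3 between the VPA groups (3 without OXT-treated VPA rat 2 or vehicle-treated VPA rat 2, and 2 without OXT-treated or vehicle-treated VPA rat 3), 1 to 3 for OXT-treated VPA rats against control (1 without control rat 2) and 2 to 4 by F. The medians were then -0.11 to -0.0067, 0.05 to 0.13 and -0.0067 to 0.09 in the 3 comparisons. Members that had not passed in the main fit passed in some of these fits. In vehicle-treated VPA rats against control they were Cd74, Selplg, Tyrobp and Itgam, all lower. In OXT-treated VPA rats against control Cxcl16 and Cd74 were lower, and Spi1 and Ctss higher. Between the VPA groups Aif1, Cd74, B2m, Tlr7, Cxcl16, Tyrobp and Laptm5 were higher. The labels give the same replicate numbers in each group, but arrays of the same number did not deviate together (correlations of -0.212 to 0.101 across probe sets). With the replicate block 3, 1 and 2 genes passed in the 3 comparisons and 3 by F, as without it. The spread of the arrays limits differences under about 1.5-fold for Cd74, B2m, Lyz2 and Cxcl16, and signal over background is unknown for the genes under 6.6.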

Other observations

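Other immune lists, whose genes are not on the list of 37, were counted in the same way, where of all probe sets with 1 gene symbol 8.76% passed in vehicle-treated VPA rats against control (3.69% higher, 5.07% lower), 3.14% between the VPA groups (1.94% higher, 1.19% lower) and 7.61% in OXT-treated VPA rats against control (3.98% higher, 3.64% lower). Of 20 cytokine and inflammasome genes, 0 passed in vehicle-treated VPA rats against control and 0 between the VPA groups in limma (unadjusted p under 0.05), while in OXT-treated VPA rats against control 2 were higher (Il1r1, the interleukin receptor, at 0.42 and Cybb, the phagocyte oxidase subunit, at 0.43) and 1 lower (Ptgs2, cyclooxygenase, at -0.35). Of 19 measured interferon response genes, 1 was lower in vehicle-treated VPA rats against control (Mx2, an antiviral GTPase, at -0.28) and 0 passed in the other 2 comparisons. Of 17 genes of disease-associated microglia, 1 was higher and 3 were lower in vehicle-treated VPA rats against control, 0 passed between the VPA groups, and 1 was higher in OXT-treated VPA rats against control. The higher gene was Timp2, an inhibitor of matrix metalloproteinases, which was at 9.76, 9.58 and 9.86 in OXT-treated VPA rats, 9.73, 9.73 and 9.61 in vehicle-treated VPA rats and 9.20, 9.29 and 9.06 in control rats. All 6 VPA rats were above the control rats for Timp2, by 0.55 (SE 0.10, adjusted p = 0.142 in limma) in OXT-treated and 0.51 (SE 0.10, adjusted p = 0.157) in vehicle-treated rats. The lower genes were Lpl (lipoprotein lipase) at -0.39, the tetraspanin Cd9 at -0.52 and the cathepsin Ctsd at -0.21. In the same comparison all 12 measured oligodendrocyte markers had negative differences and 4 passed, with list levels of 9.13 to 9.76 in OXT-treated VPA rats, 8.98 to 9.82 in vehicle-treated VPA rats and 9.86 to 10.3 in control rats. All 7 measured ependymal markers had negative differences there too and 4 passed, with list levels of 5.01 to 6.01, 4.95 to 5.70 and 5.79 to 6.42 in the same order of groups, and the part of these markers in the result was not tested.

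Of 14 measured ligands and survival signals of microglia, only Cd200, a neuronal ligand that restrains microglia, passed, higher against control by 0.42 in OXT-treated and 0.36 in vehicle-treated VPA rats. Of 11 neutrophil and monocyte genes only Mmp9 passed, higher by 0.56 in vehicle-treated VPA rats against control. Of 12 measured lymphocyte genes, the T cell receptor chain Cd3e was lower, at -0.87, in vehicle-treated VPA rats against control, and Cd8b and Cd79b were higher by 0.36 and 0.37 in OXT-treated against vehicle-treated VPA rats. The mean log2 level of the lymphocyte list was 4.93 to 5.0 in OXT-treated VPA rats, 4.86 to 4.98 in vehicle-treated VPA rats and 4.86 to 5.0 in control rats.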
